A study of Mus musculus with 12 samples.

Results

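The 36 genes described here encode nucleolar proteins that make ribosomes. They were taken by name from the array annotation, and a gene was represented by the probe set that carries its symbol alone and has the highest mean over the 12 arrays. All 36 were found, of the 19938 genes that have a probe set of their own. By role they were 8 proteins of the box C/D and box H/ACA small nucleolar ribonucleoproteins (snoRNPs), 2 subunits of RNA polymerase I, 8 factors of the small subunit, 13 factors of the large subunit and 5 nucleolar proteins with several functions.

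Islets of Langerhans were isolated with collagenase from 129Sv mice that carried the prolactin receptor gene (Prlr+/+) or lacked it in the whole body (Prlr-/-). RNA came from non-pregnant mice (NP) and from mice at pregnancy day 9.5 (P9.5), with 3 arrays in each of the 4 groups and 12 arrays in all. The pregnant Prlr-/- mice also had a pellet of 5 mg progesterone from day 0.5, which no other group received. Genotype and pellet therefore cannot be told apart in the pregnant groups, nor pregnancy and pellet within Prlr-/- mice. A change with pregnancy in Prlr-/- islets is thus a change with pregnancy and pellet together. The methods of the authors give an age of 13 to 20 weeks for mice of this strain, and a figure legend gives a slightly wider range for the pregnant mice. An islet preparation holds several endocrine cell types besides beta cells, vessels and some acinar tissue, and the knockout is not limited to the islet. In such bulk samples fewer cells of a type and less RNA per cell cannot be told apart. The arrays were labelled as biological replicates. Values are log2 expression from robust multichip analysis, rounded to steps of 0.1, so a difference of 1 is a change of 1 doubling.

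Ribosomes are put together in the nucleolus. RNA polymerase I transcribes the long pre-rRNA, snoRNPs guide its chemical modification, a large complex called the small subunit processome folds and cleaves it, and separate sets of factors mature the small and the large subunit. The transcription factor Myc, which acts as a dimer with Max, is known to activate many of these genes in growing cells, and the prolactin receptor signals in beta cells during pregnancy, when the islet grows. The design therefore allows the question of whether the nucleolar genes follow Myc across genotype and pregnancy.

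Myc with Max binds the E-box CACGTG, which reads the same on both strands. RefSeq promoter windows on build GRCm38.p6, from 250 bases before to 50 after the start of transcription, were available for 30 of the 36 genes and were not used here for Fbl, Rrp12, Bop1, Gnl2, Rrs1 and Npm1. The E-box was in the windows of 5 of the 30 genes (16.7%), against 8.09% of all 27025 genes with a window. A gene was counted if any of its windows held the motif. Their sites are shown with the E-box in capitals, 5′ to 3′ on the strand of the gene, because the motif is the one Myc is known to bind. The E-box of Wdr43 begins 18 bases after the start (chr17:71616220-71616249, plus strand), that of Utp20 38 bases after it (chr10:88826765-88826794, minus strand), that of Pes1 3 bases after it (chr11:3963965-3963994, plus strand), that of Nop2 60 bases before it (chr6:125131811-125131840, plus strand) and that of Mybbp1a 41 bases after it (chr11:72441347-72441376, plus strand).
Wdr43: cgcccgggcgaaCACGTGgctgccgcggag
Utp20: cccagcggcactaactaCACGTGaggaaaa
Pes1: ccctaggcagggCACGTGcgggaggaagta
Nop2: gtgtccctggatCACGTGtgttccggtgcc
Mybbp1a: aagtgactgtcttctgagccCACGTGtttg
A match of letters is a description and does not show that Myc was bound.

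One array stood apart. Xist, the RNA of the inactive X chromosome in female cells, was at 3.8 in Prlr+/+ P9.5 replicate 2 and between 10 and 10.7 in the other 11 arrays. The Y-linked genes Kdm5d, Uty and Eif2s3y were at 4.2, 3.7 and 3.4 in that array, within their ranges in the others. Counts of called nucleolar genes that changed when it was left out are also given without it. No probe set carries the symbol Prlr in the annotation used here, so the level of the targeted gene was not checked. The authors reported, without showing the values, that Prlr alone differed between the genotypes in NP islets on these arrays. Over all probe sets, pairs of arrays correlated at 0.972 to 0.988 within a stage and at 0.931 to 0.969 between stages.

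Myc itself rose with pregnancy in Prlr+/+ islets and had no such rise in Prlr-/- islets. In replicate order, its values were 6.3, 6.1 and 6.6 in Prlr+/+ NP islets, 6.7, 6.5 and 5.9 in Prlr-/- NP islets, 7.2, 7.5 and 7.9 in Prlr+/+ P9.5 islets and 6.1, 5.9 and 6.0 in Prlr-/- P9.5 islets. The 3 Prlr+/+ P9.5 arrays were above the other 9. A change was called when it was at least 1.5-fold (0.585 on the log2 scale) with an adjusted p under 0.05 in limma, by Benjamini-Hochberg over all 35511 probe sets. Myc was 2.30-fold higher at P9.5 than in NP islets of Prlr+/+ mice (log2 fold change 1.2 ± 0.22 SE, limma adjusted p = 0.00315). In Prlr-/- islets the log2 fold change was -0.37 ± 0.22 (limma adjusted p = 0.213). At P9.5 Myc was 2.90-fold lower in Prlr-/- than in Prlr+/+ islets (log2 fold change -1.53 ± 0.22, limma adjusted p = 0.0117), and without replicate 2 of the Prlr+/+ P9.5 group the difference was -1.55 with an adjusted p of 0.0541. This call was also lost without any 1 of the 3 Prlr-/- P9.5 arrays (limma adjusted p = 0.0517 to 0.0621) and when only those 2 groups were fitted (limma adjusted p = 0.0558). The interaction of pregnancy and genotype was -1.57 ± 0.31 (limma adjusted p = 0.117). The interaction therefore did not pass the threshold over all probe sets, and passed it at 0.00847 when only probe sets naming 1 gene were tested.

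The nucleolar genes rose with pregnancy in both genotypes, in Prlr-/- islets with the pellet given as well. In Prlr+/+ islets 18 of the 36 (50%) were called higher at P9.5 and 0 lower, against 5.73% of all probe sets called higher and 4.21% called lower. With 1 probe set per gene these shares were 5.86% and 2.19%. The median log2 fold change of the 36 was 0.58, against -0.07 over all probe sets, and 35 were above 0. In Prlr-/- islets 12 of the 36 (33.3%) were called higher and 0 lower, against 7.44% of all probe sets called higher and 7.09% called lower. With 1 probe set per gene the shares were 7.86% and 3.06%. The median of the 36 in Prlr-/- islets was 0.43, against -0.07 over all probe sets, and 32 were above 0. Without the fold minimum, 24 and 19 were called higher in Prlr+/+ and Prlr-/- islets, against 11.5% and 15.6% of all probe sets (16 in Prlr+/+ islets without the array that stood apart). None of the 36 fell even at an unadjusted limma p of 0.05, which 18.9% of all probe sets in Prlr+/+ and 24.8% in Prlr-/- islets did. Without the array that stood apart, 11 were called in Prlr+/+ islets, with 4.67% of all probe sets, and the calls of Nolc1, Heatr1, Wdr12, Nop16, Gnl2, Rrs1 and Noc3l were lost. Without Prlr-/- NP replicate 1, 8 were called in Prlr-/- islets, and the calls of Gnl3, Ebna1bp2, Npm1 and Ddx10 were lost.

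The pregnancy comparisons of the 2 genotypes share no array. Called in both were Nop56, Nop58, Dkc1, Wdr75, Utp15, Brix1, Gnl2, Gnl3, Noc3l and Npm1, which are 10 genes, 55.6% of the Prlr+/+ calls and 83.3% of the Prlr-/- calls. Called only in Prlr+/+ islets were Gar1, Nolc1, Heatr1, Pes1, Wdr12, Nop16, Rrs1 and Nip7, and only in Prlr-/- islets Ebna1bp2 and Ddx10. A call in 1 genotype alone is not a difference between genotypes: 17 of the 18 genes called in Prlr+/+ islets were above 0 in Prlr-/- islets as well, and 16 passed an unadjusted p of 0.05 there in limma, which 20.2% of all probe sets did in that direction. With the array that stood apart left out, 8 genes were called in both genotypes (72.7% of the Prlr+/+ and 66.7% of the Prlr-/- calls), 3 only in Prlr+/+ and 4 only in Prlr-/- islets. With all arrays, the rise was smaller in Prlr-/- islets for 26 genes, larger for 8 and equal for 2 (median interaction -0.08). Of all genes, 49.9% had an interaction above 0. The split depended in part on the array that stood apart. With it left out, the median was -0.05, and Dkc1, Nolc1, Utp15 and Rrp12 went from a smaller to a larger rise. Polr1a and Wdr43 went from an equal to a larger rise, and Nop56 from a smaller to an equal one. These were the only changes of direction. In 19 of the 36 genes (52.8%) every P9.5 array was above every NP array, whatever the genotype, against 9.41% of all probe sets. It was again 19 without the array that stood apart.

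**Figure D1:**
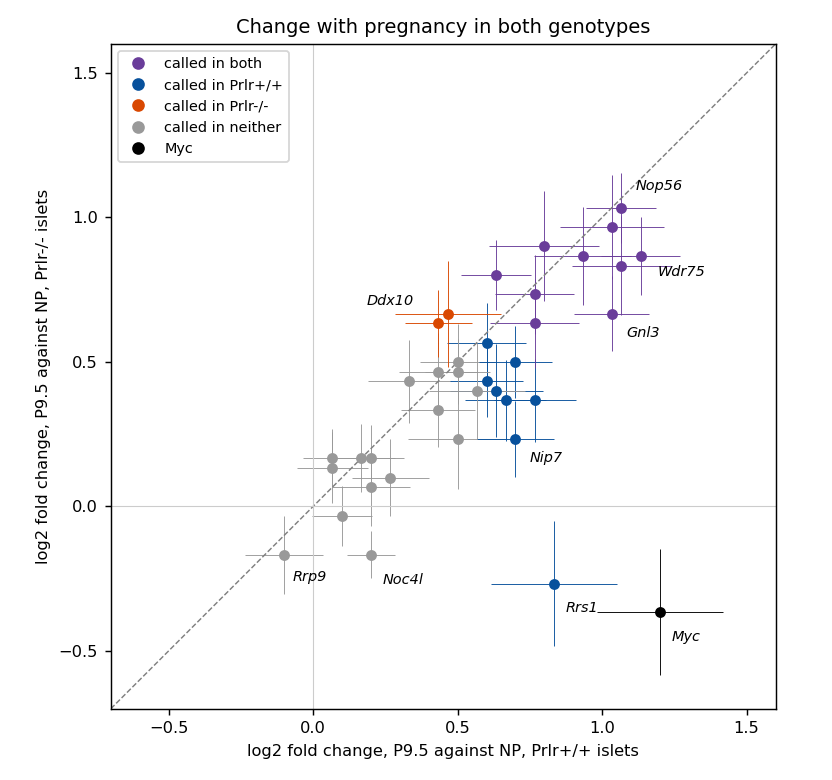
Log2 fold change from NP to P9.5 in Prlr+/+ islets (horizontal axis) and Prlr-/- islets (vertical axis) for the 36 nucleolar genes and Myc, with bars of 1 SE and 3 arrays per group. The 10 genes called in both genotypes lie toward the upper right near the dashed line of equal change, and Myc (1.2 and -0.37) and Rrs1 (0.83 and -0.27) lie apart from the others at the lower right.

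The proteins of the snoRNPs, which guide the modification of rRNA, rose in part: 5 of 8 were called in Prlr+/+ islets and 3 of 8 in Prlr-/- islets, with median log2 fold changes of 0.68 and 0.47. Without the array that stood apart, 4 of the 8 were called in Prlr+/+ islets. Nop56, a core protein of the box C/D particles, had the smallest adjusted p of the 36 in both genotypes. It was at 8.2, 7.7 and 8.0 in Prlr+/+ NP, 8.0, 8.0 and 8.1 in Prlr-/- NP, 9.1, 9.1 and 8.9 in Prlr+/+ P9.5 and 9.1, 9.0 and 9.1 in Prlr-/- P9.5 islets. The stages did not overlap and the pregnant genotypes did. It rose by 1.07 ± 0.12 on the log2 scale in Prlr+/+ islets (limma adjusted p = 0.000457) and by 1.03 ± 0.12 in Prlr-/- islets (limma adjusted p = 0.000185).

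Nop58, its partner in the same particles, was at 7.8, 7.2 and 7.4, then 7.3, 7.4 and 7.8 in the NP islets of Prlr+/+ and Prlr-/- mice, and at 8.7, 8.6 and 8.3, then 8.4, 8.3 and 8.3 at P9.5. Its rise was 1.07 ± 0.17 in Prlr+/+ (limma adjusted p = 0.00168) and 0.83 ± 0.17 in Prlr-/- islets (limma adjusted p = 0.00386), with no overlap between the stages. Fbl, the methyltransferase of these particles, was not called on its representative probe set, with 0.50 and 0.23. Dkc1, the pseudouridine synthase of the box H/ACA particles, was at 7.2, 6.7 and 6.9 in Prlr+/+ NP, 6.6, 7.0 and 6.9 in Prlr-/- NP, 7.9, 8.1 and 7.6 in Prlr+/+ P9.5 and 7.8, 7.5 and 7.8 in Prlr-/- P9.5 islets. Every P9.5 array was above every NP array for Dkc1. The change was 0.93 ± 0.17 and 0.87 ± 0.17 in the 2 genotypes (limma adjusted p = 0.00296 and 0.00282).

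Gar1, another core protein of the box H/ACA particles, was at 7.3, 6.7 and 7.0 in Prlr+/+ NP, 7.2, 7.4 and 7.2 in Prlr-/- NP, 7.8, 7.6 and 7.9 in Prlr+/+ P9.5 and 7.7, 7.6 and 7.6 in Prlr-/- P9.5 islets. The stages were separate again, with a smaller gap in Prlr-/- islets. Gar1 rose in Prlr+/+ islets (0.77 ± 0.14, limma adjusted p = 0.00345) and was at 0.37 ± 0.14 in Prlr-/- islets (limma adjusted p = 0.0658). Nolc1, a chaperone of snoRNPs, was called in Prlr+/+ islets at 0.60, just past the fold minimum, and stood at 0.57 in Prlr-/- islets, just short of it. The remaining members of this group did not pass: Nhp2, of the box H/ACA particles, was at 0.27 and 0.10, and Rrp9, which belongs to the particle that acts in pre-rRNA cleavage, at -0.10 and -0.17.

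Neither subunit of RNA polymerase I was called. Polr1a, the largest subunit, was at 7.3, 7.1 and 7.1 in Prlr+/+ NP, 6.9, 7.2 and 7.1 in Prlr-/- NP, 7.4, 7.4 and 7.2 in Prlr+/+ P9.5 and 7.2, 7.1 and 7.4 in Prlr-/- P9.5 islets, so that the groups overlapped. Its log2 fold change was 0.17 in both genotypes. Polr1b, the second largest subunit, was at 0.43 in Prlr+/+ islets (limma adjusted p = 0.0316, below the fold minimum) and at 0.33 in Prlr-/- islets (limma adjusted p = 0.0636).

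Of the 8 small subunit factors, 3 were called in Prlr+/+ (2 without the array that stood apart) and 2 in Prlr-/- islets, with medians of 0.47 and 0.45. The group contains the early-acting members of the processome that bind the nascent pre-rRNA, namely Wdr43, Wdr75, Utp15 and Heatr1. Wdr75 had the largest change of the 36 in Prlr+/+ islets. It was at 6.9, 6.7 and 6.8 in Prlr+/+ NP, 6.7, 6.8 and 7.0 in Prlr-/- NP, 8.1, 8.0 and 7.7 in Prlr+/+ P9.5 and 7.9, 7.5 and 7.7 in Prlr-/- P9.5 islets. The stages were at least 0.5 apart in both genotypes. It rose by 1.13 ± 0.14 (limma adjusted p = 0.000529) and by 0.87 ± 0.14 (limma adjusted p = 0.000875).

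Utp15 was at 7.1, 6.6 and 6.8, then 6.8, 7.0 and 6.8 in the NP islets of Prlr+/+ and Prlr-/- mice, and at 7.7, 7.7 and 7.4, then 7.6, 7.5 and 7.7 at P9.5. The 2 genotypes had the same P9.5 mean. The rise of Utp15 was 0.77 ± 0.14 in Prlr+/+ (limma adjusted p = 0.00279) and 0.73 ± 0.14 in Prlr-/- islets (limma adjusted p = 0.00225). Heatr1 was at 7.3, 7.0 and 7.1, then 7.2, 7.2 and 7.4 in NP islets, and at 7.8, 7.9 and 7.5, then 7.7, 7.6 and 7.8 at P9.5. It was called in Prlr+/+ islets (0.60 ± 0.13, limma adjusted p = 0.00607), a call lost without any 1 of 4 of the 6 Prlr+/+ arrays, and was below the fold minimum in Prlr-/- islets (0.43 ± 0.13, limma adjusted p = 0.0203). Wdr43 had an adjusted p under 0.05 in both genotypes with 0.50 in each, below the fold minimum. Utp20, Nop14, Rrp12 and Noc4l, the other small subunit factors, were not called and ranged from 0.20 to 0.43 in Prlr+/+ and from -0.17 to 0.47 in Prlr-/- islets.

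Of the 13 large subunit factors, 9 were called in Prlr+/+ and 5 in Prlr-/- islets, with medians of 0.67 and 0.40. The Prlr+/+ count was 4, with a median of 0.58, without the array that stood apart, where Wdr12, Nop16, Gnl2, Rrs1 and Noc3l lost their calls. Gnl3, the nucleolar GTPase nucleostemin, was at 7.4, 7.1 and 7.1 in Prlr+/+ NP, 7.0, 7.3 and 7.2 in Prlr-/- NP, 8.3, 8.4 and 8.0 in Prlr+/+ P9.5 and 7.8, 7.8 and 7.9 in Prlr-/- P9.5 islets. It was the only one of the 36 genes, as Myc was, with its 3 Prlr+/+ P9.5 arrays above the other 9 (2.78% of the genes, against 1.00% of all probe sets). When that array was left out Gar1 joined it, which made 2 genes, against 1.77% of all probe sets. It rose by 1.03 ± 0.13 in Prlr+/+ (limma adjusted p = 0.000574) and by 0.67 ± 0.13 in Prlr-/- islets (limma adjusted p = 0.00282). Unlike Myc, Gnl3 was thus called in both genotypes.

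Gnl2, a related GTPase of the maturing large subunit, was at 7.5, 7.4 and 7.4, then 7.3, 7.2 and 7.2 in the NP islets of Prlr+/+ and Prlr-/- mice, and at 8.1, 8.3 and 7.8, then 8.1, 7.9 and 8.1 at P9.5. Its change was larger in Prlr-/- (0.80 ± 0.12, limma adjusted p = 0.000714) than in Prlr+/+ islets (0.63 ± 0.12, limma adjusted p = 0.00411), a difference that was not called in the interaction. Brix1, an early large subunit factor, was at 7.3, 7.0 and 7.2, then 6.7, 7.3 and 7.3 in NP islets, and at 8.3, 8.3 and 8.0, then 8.1, 7.8 and 8.3 at P9.5. The stages were separate for both genes. Brix1 rose by 1.03 ± 0.18 (limma adjusted p = 0.00253) and 0.97 ± 0.18 (limma adjusted p = 0.00226).

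Pes1, Bop1 and Wdr12 form 1 complex, known as PeBoW, that is needed to process the rRNA of the large subunit, and the 3 differed. Pes1 was at 8.0, 7.5 and 7.7, then 7.8, 7.8 and 7.9 in the NP islets of Prlr+/+ and Prlr-/- mice, and at 8.5, 8.4 and 8.4, then 8.5, 8.2 and 8.3 at P9.5. Wdr12 was at 6.7, 6.7 and 6.5, then 6.6, 6.8 and 6.8 in NP islets, and at 7.4, 7.5 and 7.0, then 7.2, 6.9 and 7.2 at P9.5. For both the P9.5 arrays lay above the NP arrays. Pes1 was called in Prlr+/+ (0.70 ± 0.13, limma adjusted p = 0.00298) and fell short of the fold minimum in Prlr-/- islets (0.50 ± 0.13, limma adjusted p = 0.0111). Wdr12 was called in Prlr+/+ (0.67 ± 0.14, limma adjusted p = 0.00659) and not in Prlr-/- islets (0.37 ± 0.14, limma adjusted p = 0.0636). Bop1 was at 7.0, 6.8 and 6.8, then 7.1, 6.9 and 7.0 in NP islets, and at 7.0, 7.1 and 6.8, then 7.0, 7.0 and 6.9 at P9.5. Its groups overlapped throughout, with changes of 0.10 and -0.03.

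Nip7, which acts in pre-rRNA processing, was at 6.4, 6.1 and 6.0 in Prlr+/+ NP, 6.4, 6.3 and 6.4 in Prlr-/- NP, 7.0, 6.9 and 6.7 in Prlr+/+ P9.5 and 6.8, 6.4 and 6.6 in Prlr-/- P9.5 islets. The stages were apart in Prlr+/+ and touched in Prlr-/- islets. It rose in Prlr+/+ (0.70 ± 0.13, limma adjusted p = 0.00402) and stood at 0.23 ± 0.13 in Prlr-/- islets (limma adjusted p = 0.195). Noc3l was called in both genotypes (0.80 and 0.90), Nop16 in Prlr+/+ islets alone (0.63 and 0.40) and Ebna1bp2 in Prlr-/- islets alone (0.43 and 0.63). Nop2, an rRNA methyltransferase, and Rrp1b were not called, with 0.20 and 0.07 for Nop2 and 0.07 and 0.17 for Rrp1b in Prlr+/+ and Prlr-/- islets.

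Among the 5 proteins with several functions, Npm1 was called in both genotypes and Ddx10 in Prlr-/- islets. Npm1, the histone and ribosome chaperone nucleophosmin, was at 8.7, 8.7 and 8.3 in Prlr+/+ NP, 8.3, 8.8 and 8.5 in Prlr-/- NP, 9.3, 9.4 and 9.3 in Prlr+/+ P9.5 and 9.1, 9.0 and 9.4 in Prlr-/- P9.5 islets. The stages did not overlap. The rise was 0.77 ± 0.16 in Prlr+/+ (limma adjusted p = 0.00526) and 0.63 ± 0.16 in Prlr-/- islets (limma adjusted p = 0.0095). Ncl, the abundant nucleolar protein nucleolin, had changes of 0.50 and 0.47 with adjusted p-values of 0.00873 and 0.00849 in limma, below the fold minimum. The RNA helicase Ddx21 was at 0.57 and 0.40 and the helicase Ddx10 at 0.47 and 0.67. Mybbp1a, a nucleolar protein that binds the transcription factor Myb, was at 0.07 and 0.13 and was not called.

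**Figure D2:**
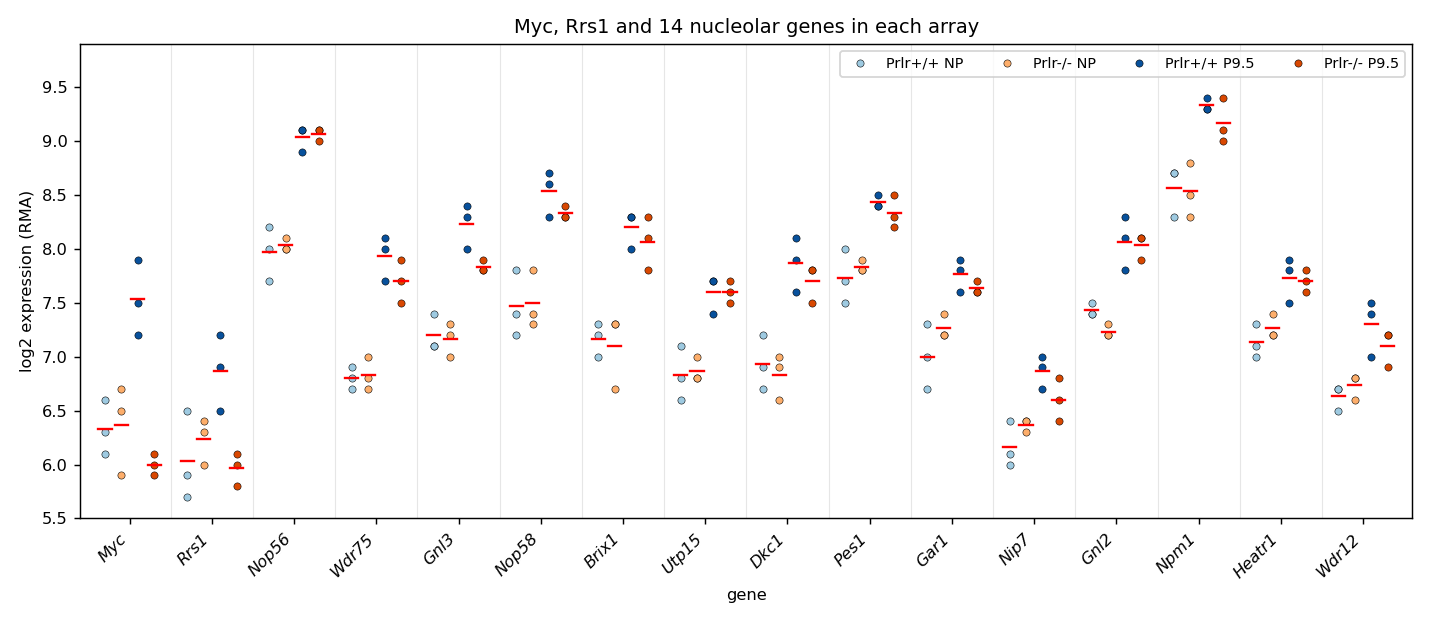
Log2 expression (vertical axis) of Myc, Rrs1 and the 14 nucleolar genes with the smallest adjusted p in Prlr+/+ islets, with 1 point per array, 3 arrays per group and red lines at the group means. The P9.5 points of both genotypes lie above the NP points for 13 of the 14 genes, with Nip7 touching in Prlr-/- islets, whereas Myc and Rrs1 are high in the Prlr+/+ P9.5 group and lie among the NP values in the Prlr-/- P9.5 group.

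Between the genotypes at P9.5 none of the 36 genes was called, against 0.206% of all probe sets called lower and 0.0253% called higher in Prlr-/- islets. At an unadjusted p under 0.05 in limma, 2 were lower and 0 higher, against 2.63% and 2.79% of all probe sets. The median difference was -0.10, against 0 over all probe sets. This comparison shares the Prlr+/+ P9.5 arrays with the pregnancy comparison of Prlr+/+ mice. The 95% intervals of the differences reached from 0.179 to 0.474 to each side. With all arrays, those of 34 genes lay within 1.5-fold in either direction, and Gnl3 and Rrs1 were the exceptions. That count was not repeated without the array that stood apart, where some intervals were wider. Ddx10 then went from 0.10 ± 0.18 to 0.22 ± 0.20, and Nop58 from -0.20 ± 0.17 to -0.17 ± 0.20. With all arrays again, the intervals were compared with Myc. The intervals of all 36 lay above the estimate for Myc, -1.53, whose own interval was -2.01 to -1.06 and overlapped that of Rrs1 (-1.37 to -0.43). For Nop56 the difference was 0.03 (95% interval -0.23 to 0.30), and for Wdr75 it was -0.23 (-0.53 to 0.06). Gnl3 differed by -0.40 (-0.68 to -0.12, limma adjusted p = 0.615), which did not pass. In 3 of the 36 genes, Gnl3, Noc4l and Rrs1, every Prlr+/+ P9.5 array was above every Prlr-/- P9.5 array (8.33%, against 2.91% of all probe sets). Without the array that stood apart there were 4, with Gar1 added, against 7.27% of all probe sets.

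**Figure D3:**
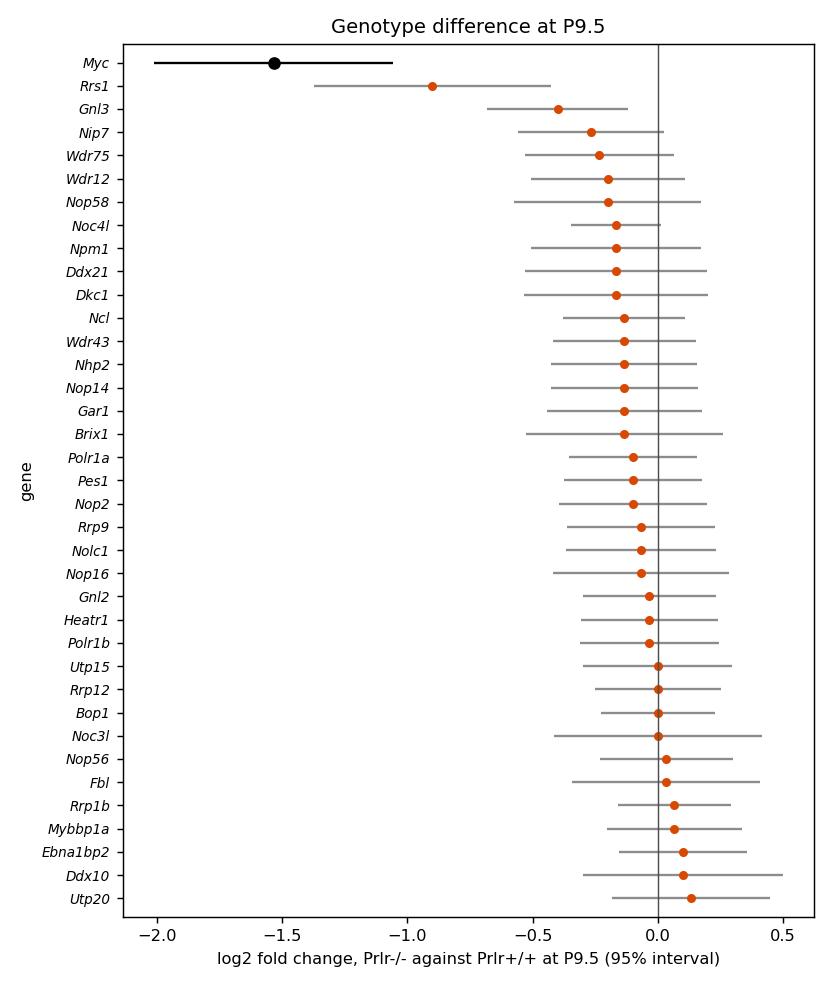
Log2 fold change of Prlr-/- against Prlr+/+ islets at P9.5 (horizontal axis) for Myc and each of the 36 genes, with 95% intervals from the limma fit of 3 arrays per group. Myc is at -1.53 and Rrs1 at -0.90, and the other genes lie between -0.40 and 0.13.

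In NP islets 0 of the 36 genes were called between the genotypes in limma, and 1 was higher in Prlr-/- islets at an unadjusted p under 0.05, namely Noc4l (0.20, limma adjusted p = 0.348). Of all probe sets 0.0929% were called higher and 0.00845% lower, and 7.14% were higher at that unadjusted p. For the interaction of pregnancy and genotype 0 were called, against 0.0788% of all probe sets called lower and 0 called higher. At an unadjusted p under 0.05 in limma, 3 had a smaller rise in Prlr-/- islets, which were Rrs1 (-1.10), Noc4l (-0.37) and Nip7 (-0.47), with adjusted p-values of 0.272, 0.335 and 0.445; 5.59% of all probe sets did. The interaction intervals of 35 genes lay above the estimate for Myc, -1.57 (95% interval -2.24 to -0.89), and that of Rrs1 did not.

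Rrs1 and Noc4l are described further because of their values, which were seen before they were chosen. Rrs1, which helps to build the large subunit, was at 6.5, 5.7 and 5.9 in Prlr+/+ NP, 6.3, 6.0 and 6.4 in Prlr-/- NP, 7.2, 6.9 and 6.5 in Prlr+/+ P9.5 and 6.1, 6.0 and 5.8 in Prlr-/- P9.5 islets. The Prlr+/+ P9.5 arrays were the highest, with 1 of them level with 1 NP array. Rrs1 rose by 0.83 ± 0.22 in Prlr+/+ islets (limma adjusted p = 0.0182), a call that was lost without any 1 of 4 of those 6 arrays. In Prlr-/- islets it was at -0.27 ± 0.22 (limma adjusted p = 0.359). At P9.5 it differed by -0.90 (95% interval -1.37 to -0.43, limma adjusted p = 0.256), and by the same amount with an adjusted p of 0.0248 when only probe sets naming 1 gene were tested. Noc4l, a small subunit factor, spanned a narrow range. It was at 6.7, 6.6 and 6.6 in Prlr+/+ NP, 6.8, 6.8 and 6.9 in Prlr-/- NP, 6.8, 6.9 and 6.8 in Prlr+/+ P9.5 and 6.6, 6.7 and 6.7 in Prlr-/- P9.5 islets, and its changes of 0.20 and -0.17 were not called.

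Whether the genes followed Myc was described over group means, over the NP arrays and over deviations of single arrays from group means, without a test. Across the 4 group means, the gene most like Myc was Rrs1 (Pearson r = 0.983), followed by Nop2 (0.748), Nhp2 (0.743), Nip7 (0.662) and Noc4l (0.643), and the least like it was Mybbp1a (-0.0735). Since 4 means with 1 high group leave little room, these values only rank the genes. Over the 6 NP arrays the median r of the 36 genes with Myc was -0.169, against 0.0475 over all genes, and 11 were above 0. That value was unstable. Without the 2 NP arrays farthest from the median of Myc it was -0.739, or 0.0129 with each array centred on its median. Over the 12 deviations from group means, the median r of the 36 genes with Myc was -0.286 (Spearman rho -0.308), against 0.00802 over all genes, and 4 of the 36 were above 0. Without the 2 arrays farthest from the median of Myc, the median r was -0.148, and with 1 array left out it ranged from -0.48 (without Prlr+/+ NP replicate 2) to -0.0954 (without Prlr+/+ P9.5 replicate 3). Rrs1 itself had r = -0.405 within groups. All genes were read from the same 12 arrays, so the r of different genes are not independent. The Myc values of the Prlr+/+ P9.5 group stood apart from the rest, so no r is given over all 12 arrays.

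The 36 genes were also averaged by array. As the mean deviation of the 36 genes from their own 12-array means, it was -0.07, -0.39 and -0.32 in Prlr+/+ NP, -0.32, -0.21 and -0.17 in Prlr-/- NP, 0.35, 0.41 and 0.13 in Prlr+/+ P9.5 and 0.23, 0.11 and 0.24 in Prlr-/- P9.5 islets. All P9.5 arrays were above all NP arrays. The Prlr+/+ P9.5 array with the highest Myc, 7.9, had the lowest mean of its group, 0.13. That array also had the highest mean level of acinar markers in its group, 10.23 against 9.475 and 9.162, whose part was not tested. The Prlr-/- P9.5 arrays, with Myc between 5.9 and 6.1, were all above 0.

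**Figure D4:**
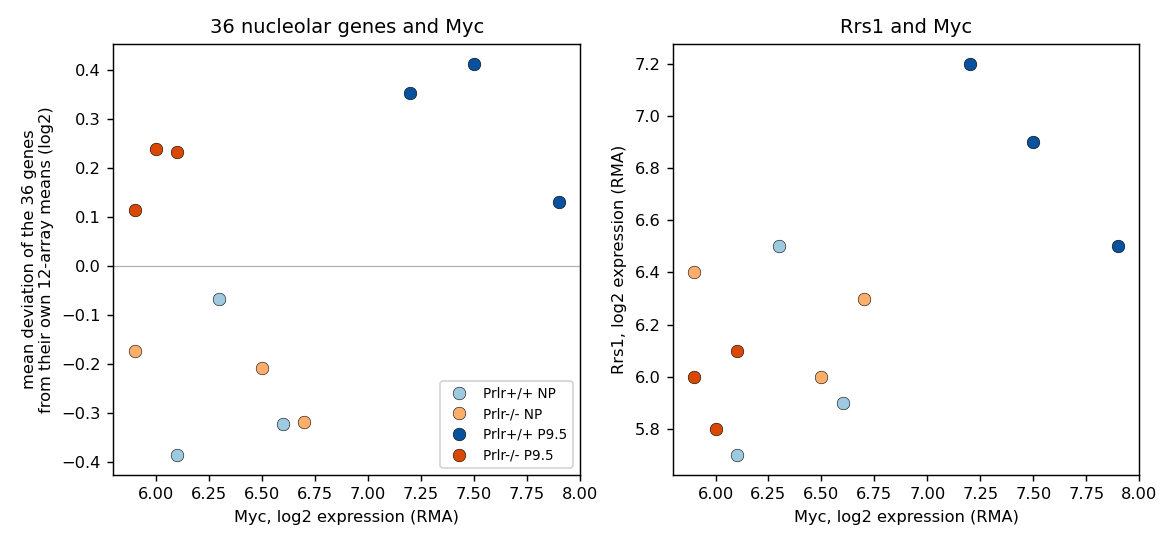
Mean deviation of the 36 genes (left) and log2 expression of Rrs1 (right) against the log2 expression of Myc, with 1 point per array and 12 arrays. On the left the Prlr-/- P9.5 arrays lie above 0 with Myc at 5.9 to 6.1, and on the right they lie with the NP arrays.

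The calls were also counted by E-box, without a test. Of the 5 genes with CACGTG in the window, Pes1 was called in Prlr+/+ islets and 0 in Prlr-/- islets. Of the 25 without it, 14 and 10 were called, and 9 in Prlr+/+ islets without the array that stood apart. Of the 6 genes with no window used, Gnl2, Rrs1 and Npm1 were called in Prlr+/+ islets, and only Npm1 without the array that stood apart. The other 4 genes with the motif were Wdr43 (0.50 in both genotypes), Utp20 (0.33 and 0.43), Nop2 (0.20 and 0.07) and Mybbp1a (0.07 and 0.13). Binding outside this window was not measured.

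Further genes of the same machinery were read from lists of the pathway, and a minority of each was called higher, against 5.73% of all probe sets in Prlr+/+ and 7.44% in Prlr-/- islets. Of 39 other small subunit factors, 12 were called higher in Prlr+/+ and 12 in Prlr-/- islets, with medians of 0.47 and 0.43. The largest changes in Prlr+/+ islets were those of the processome protein Mphosph10 (1.13 and 0.93) and of Tsr1 (1.10 and 1.17), which acts late in small subunit maturation, followed by Nol11 (0.97 and 0.90) and Utp4 (0.87 and 0.67), partners of Wdr75 and Utp15 in the processome. Of 42 other large subunit factors, 11 and 10 were called, with medians of 0.35 and 0.33. They included the rRNA methyltransferase Ftsj3 (0.93 and 0.77), the GTPase Gtpbp4 (0.90 and 0.80), Mak16 (0.87 and 0.60) and the export adaptor Nmd3 (0.83 and 0.60).

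The RNA polymerase I machinery beyond Polr1a and Polr1b had 3 calls of 10 in each genotype. They were subunits of the promoter selectivity factor and the initiation factor Rrn3: Taf1a (0.87 and 0.83) and Taf1b (0.80 and 0.60) were called in both, Taf1d in Prlr+/+ islets alone (0.67 and 0.43) and Rrn3 in Prlr-/- islets alone (0.57 and 0.67). Ubtf, which binds the rDNA, was not called, with -0.10 and -0.27. Of 13 other snoRNP genes, 2 and 1 were called, which for Prlr-/- islets is near the share of all probe sets. They were Nop10 of the box H/ACA particles in Prlr+/+ islets (0.77 and 0.57) and the assembly factor Rpap3 in both (0.73 and 0.63). None of these lists held a call lower, a call between the genotypes or a call in the interaction. Without the array that stood apart, the Prlr+/+ counts were 8 for the small subunit list, 8 for the large subunit list, 3 for the polymerase list and 2 for the snoRNP list.

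Within the Myc family, Myc was the only 1 of 13 genes called between the genotypes. Max, the obligate partner, was below the fold minimum in both genotypes (0.47 and 0.57). Mlx, the partner of the glucose-sensing factors, rose in both (0.67 and 0.67), and its own partners Mlxip (-0.60 and -0.23) and Mlxipl (-0.77 and -0.33) fell in Prlr+/+ islets. Of 30 textbook Myc targets outside the nucleolus, 6 were called higher in each genotype, against 5.73% and 7.44% of all probe sets. Between the genotypes at P9.5 and in the interaction, 0 of the 30 were called. At an unadjusted p under 0.05 in limma, 4 were higher and 0 lower in Prlr-/- islets at P9.5. Of all probe sets 2.79% were higher and 2.63% lower. In the interaction 4 were above 0 at that p and 0 below, against 4.26% and 5.59%. The transferrin receptor Tfrc (1.10 and 1.47), the purine synthesis enzyme Ppat (0.87 and 1.17), the chaperonin Hspe1 (0.87 and 1.03) and the translation factors Eif4e (0.77 and 0.87) and Eif4a1 (0.73 and 0.60) were called in both. Odc1, which makes polyamines, was called in Prlr+/+ islets alone (0.60 and 0.37), and Nme1 in Prlr-/- islets alone (0.50 and 0.73). Without the array that stood apart, 3 of the 30 targets were called in Prlr+/+ islets and 6 in Prlr-/- islets.

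**Figure D5:**
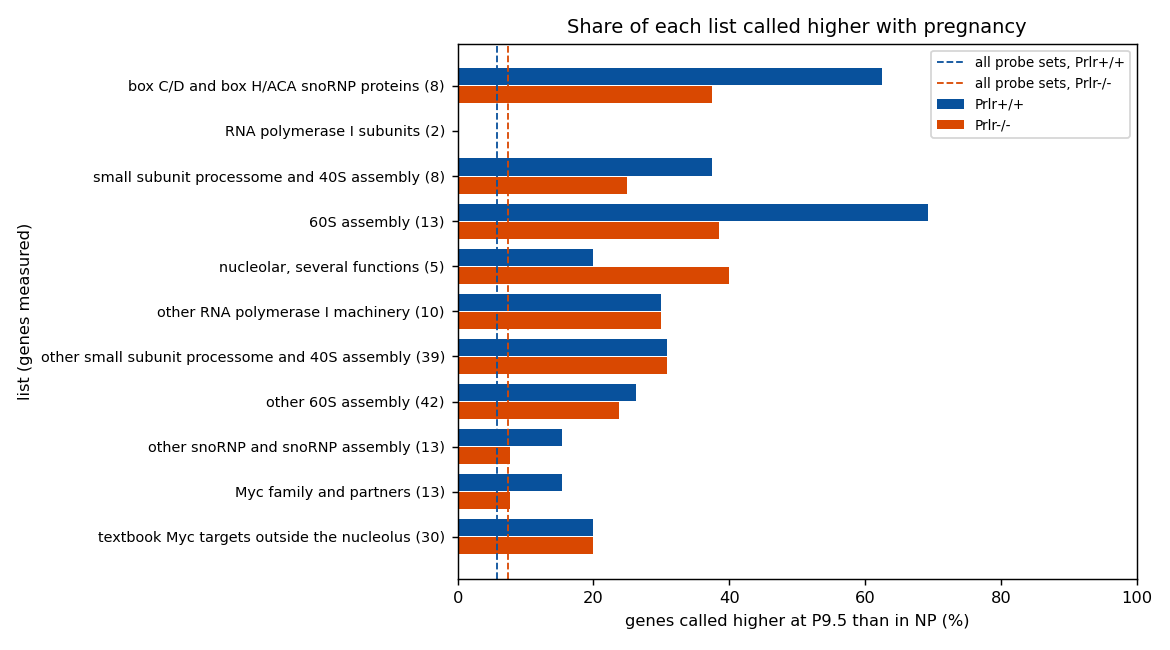
Share of each list called higher at P9.5 than in NP islets (horizontal axis, percent), with the number of genes measured in parentheses; the upper 5 lists hold the 36 genes by role and the lower 6 are the other lists. The dashed lines give the share of all probe sets, 5.73% in Prlr+/+ and 7.44% in Prlr-/- islets, and the large subunit factors reach 9 of 13 in Prlr+/+ islets, or 4 of 13 without the array that stood apart.

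Markers of other cells moved with pregnancy, and their part in these results was not tested. Of 16 acinar markers measured, 10 were called lower and 1 higher in Prlr-/- islets, and 0 lower and 1 higher in Prlr+/+ islets, the single rise in each being that of Bhlha15. The mean level of the list ranged from 9.78 to 10.3 in Prlr+/+ NP, 10.1 to 10.96 in Prlr-/- NP, 9.16 to 10.2 in Prlr+/+ P9.5 and 8.78 to 10.2 in Prlr-/- P9.5 islets, so no group was without acinar RNA. In 3 of the 4 groups the array with the highest acinar mean had the lowest mean deviation of the 36 genes. These were Prlr+/+ NP replicate 2 (10.3 and -0.39), Prlr-/- NP replicate 1 (10.96 and -0.32) and Prlr+/+ P9.5 replicate 3 (10.2 and 0.13). In the Prlr-/- P9.5 group, replicates 1, 2 and 3 had acinar means of 10.2, 9.29 and 8.78 and mean deviations of 0.23, 0.11 and 0.24. Of 19 proliferation genes, 6 were called higher in Prlr-/- and 1, Pcna, in Prlr+/+ islets, with list means of 5.60 to 5.73 in Prlr+/+ NP, 5.5 to 5.68 in Prlr-/- NP, 5.76 to 5.995 in Prlr+/+ P9.5 and 5.81 to 6.28 in Prlr-/- P9.5 islets. The beta cell markers, which check the tissue, had group means between 10.4 and 10.5. Of 15 measured, 3 were called higher and 3 lower in Prlr+/+ islets, and 2 higher and 0 lower in Prlr-/- islets. Among 12 endothelial markers Plvap and Eng were called lower in Prlr+/+ islets and Tek and Emcn higher in Prlr-/- islets, and of 8 ductal markers 1 was called lower in each genotype. The stromal, immune, adipocyte and other endocrine lists held 0 calls in limma in both pregnancy comparisons, and up to 2 genes higher and up to 3 lower per list at an unadjusted p under 0.05.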

How the data were processed

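The authors hybridised 100 ng of islet RNA per sample to MoGene_1.0_ST arrays and made the deposited log2 values by robust multichip analysis (aroma.affymetrix, R 2.12.2), rounded to steps of 0.1. Background correction and quantile normalization are therefore part of every value, and rounding gives probe sets equal values. Precision is limited by having 3 arrays per group. Of 35511 probe sets, 21789 carry the symbol of 1 gene, 1621 of several and 12101 none.

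Here 1 linear model with 4 group means was fitted to all probe sets in limma 3.58.1 (R 4.3.3), with eBayes and Benjamini-Hochberg adjustment over all of them. Errors are SE of the fit. With 3 arrays against 3 the smallest exact permutation p is 0.1, so the fit across probe sets was used. Arrays are named by the replicate numbers of their labels. Per-array values are given for Myc and the 14 called genes with the smallest adjusted p in Prlr+/+ islets. They are also given for Polr1a, Bop1, Rrs1 and Noc4l, which lie outside that rule. The genes and lists were chosen with earlier results of these data known. Alternatives were the arrays in the fit, replicates, normalization, filters, fold minimum, prior, weights and rounding. Promoter windows came from RefSeq.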

Additional observations from a re-analysis of the deposited data

How the results depend on the processing

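Of the 36 genes, 11 to 20 were called in Prlr+/+ islets and 8 to 13 in Prlr-/- islets when each of the 12 arrays was left out in turn, and 10 of the 18 and 8 of the 12 calls remained in every such fit. With a fold minimum of 2 the counts were 5 and 1. In Prlr-/- islets the count was 19 without a fold minimum and 19 with each array centred on its median, which moved the median of all probe sets from -0.07 to 0.10 there. Between the genotypes at P9.5, 1 gene, Rrs1, was called with only probe sets naming 1 gene, and 0 under the other alternatives. The log2 difference of Myc at P9.5 ranged from -1.70 to -1.35 with 1 array left out, and lost its call without Prlr+/+ P9.5 replicate 2 (adjusted p = 0.0541 in limma) or any 1 Prlr-/- P9.5 array (0.0517 to 0.0621), and with only the groups compared (-1.53, adjusted p = 0.0558 in limma). In Prlr-/- islets the change of Myc with pregnancy ranged from -0.60 to -0.20 and passed the adjusted threshold without NP replicate 3 (-0.60, adjusted p = 0.0464 in limma). In NP islets its difference of 0.03 was -0.0667 after centring, 0 after quantile normalization and between -0.13 and 0.27 with 1 array left out. The interaction of Myc, -1.57, passed with only probe sets naming 1 gene. The causes were not tested. With the replicate number as a block, 18 and 12 genes were called, and the block changed no call of Myc or of the counts. The labels do not say whether the numbers pair the arrays. Of 18 same-numbered pairs, 7 correlated above 0.1 (-0.114 to 0.227). Values of differently numbered pairs are not given here for comparison, so the question of pairing is not settled. Over the values of the 14 named nucleolar genes and Rrs1, Myc not included, 608 kept their direction and call, 38 lost the call, 1 gained it and 0 changed direction.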

Other observations

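The choice of probe set mattered for some genes. Fbl has 2 probe sets of its own, and the dimmer one, which was not chosen, was called in Prlr+/+ islets (0.63, limma adjusted p = 0.00463), while the chosen one was at 0.50 (limma adjusted p = 0.0581). Both probe sets of Wdr12 were called in Prlr+/+ islets, at 0.67 and 0.73. Npm1 has 3 more probe sets that name a second gene too, with changes of 0.63, 0.43 and 0.33 in Prlr+/+ islets, each smaller than the 0.77 of its own probe set, and the first of them was called.

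A second motif, CACGCG, was looked for on both strands after the E-box had been counted. It was in the windows of 9 of the 30 genes (30%), against 10.5% of all genes with a window. It shares no full match with CACGTG, and Pes1 and Mybbp1a hold both motifs. Of the 9 genes, 5 were called in Prlr+/+ (3 without the array with low Xist) and 2 in Prlr-/- islets, and of the 21 without it 10 (7 without that array) and 8.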
